A study of Ovis aries and Mus musculus with 10 samples.

Results

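Mammary gland of CD1 mice at gestation day 17 was compared with that at gestation day 10, with 1 array on each day, across the miRNAs detected on at least 1 of the 2 arrays by the scanner software's own flag. These were 205 of the 567 mouse miRNAs with probes on the array, and 267 of the 567 were detected somewhere in the series. The series holds 10 arrays, 5 from CD1 mice (virgin, gestation days 10 and 17, lactation days 2 and 10) and 5 from sheep, each 1 stage. All are of total RNA from mammary tissue, with no treatment and no genetic change, and the labels give neither the age of the mice nor how many glands or animals went into an array. CD1 is an outbred strain of laboratory mouse.

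Between these days of pregnancy the mouse gland is filled by epithelium. Ducts branch and alveoli bud in the first part of pregnancy, and in the second part the alveolar cells begin to make milk proteins and lipid, while the fat pad and its connective tissue take up a smaller part of the gland. miRNAs are short RNAs that guide a silencing complex to messenger RNAs through a seed near their 5′ end. Some of them mark cell types: the miR-200 family marks epithelium, where it represses the ZEB transcription factors, miR-199 and miR-214 are made in mesenchyme, miR-1 and miR-133 in striated muscle, miR-451 in red cells and miR-122 in liver. In whole tissue, fewer cells of a type and less RNA per cell cannot be told apart.

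The software detected 198 miRNAs on day 17 and 156 on day 10, of which 149 were detected on both days, 49 on day 17 only and 7 on day 10 only. Signal was brighter on day 17, with a 75th percentile of 937 arbitrary units against 702 on day 10 over the 94 miRNAs detected on all 10 arrays, and each array was divided by that percentile to give a scaled level. Day 17 lay on 1 slide with the lactation and sheep arrays, and day 10 lay on a second slide with the virgin array, so day and slide cannot be told apart. With 1 array on each day there is no replicate and no test: the standard errors given here are over the spots of an array and cover spotting and scanning only. Differences are log2(day 17 / day 10) of the scaled level, and a miRNA was called higher or lower from a 2-fold difference. Of the 205 miRNAs, 129 were above background on both arrays, meaning that at least 1 probe had signal well above background in at least 50% of its spots. Another 39 were above background on day 17 only, 5 on day 10 only and 32 on neither, and for these no measured ratio is given. Markers were set beside the tissue label: all 5 miRNAs of the miR-200 family were above background on both days, and liver miR-122 and the neural miR-9 and miR-124 were detected on neither.

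At least 2-fold higher levels on day 17 were found for 18 miRNAs (8.78% of 205) and at least 2-fold lower levels for 16 (7.8%). Among the 129 above background on both arrays, 15 were higher (11.6%), 15 were lower (11.6%) and 99 lay within 2-fold. Of the 129, 56 were above 0 and 73 below. The median difference was -0.12 and the quartiles were -0.45 and 0.44. Most of the profile was shared: log2 levels correlated at r = 0.917 across the 129 miRNAs (Spearman 0.906), which share an array, a platform and the same probes. The difference hardly tracked brightness (r = 0.027 with the mean log2 level) or the length of the probe's target (r = -0.049). Of the 10 brightest miRNAs on each array, 9 were common to both, among them let-7a, let-7b, let-7c, miR-21, miR-126-3p and miR-125b-5p. The exceptions were miR-148a, which ranked 7 of the 205 on day 17 and 42 on day 10, and miR-199b, which ranked 27 on day 17 and 8 on day 10. A rank by signal also reflects how well each probe hybridises.

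The balance of higher and lower calls depended on the scaling, so directions are relative to the percentile used. There were 20 higher and 10 lower calls when the percentile was taken over the miRNAs detected on all 5 mouse arrays, 10 and 28 when it was taken over all mouse miRNAs, and 33 and 7 without scaling. Quantile normalization gave 17 and 23, normexp background correction (with an offset of 50) 6 and 10, and 3 and 95 were counted in the authors' deposited table. Measured from each setting's own median, all 30 miRNAs called on both arrays kept their direction. Settings that only multiply a whole array by a constant leave these relative values unchanged by construction, so for them this is no check.

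**Figure D1:**
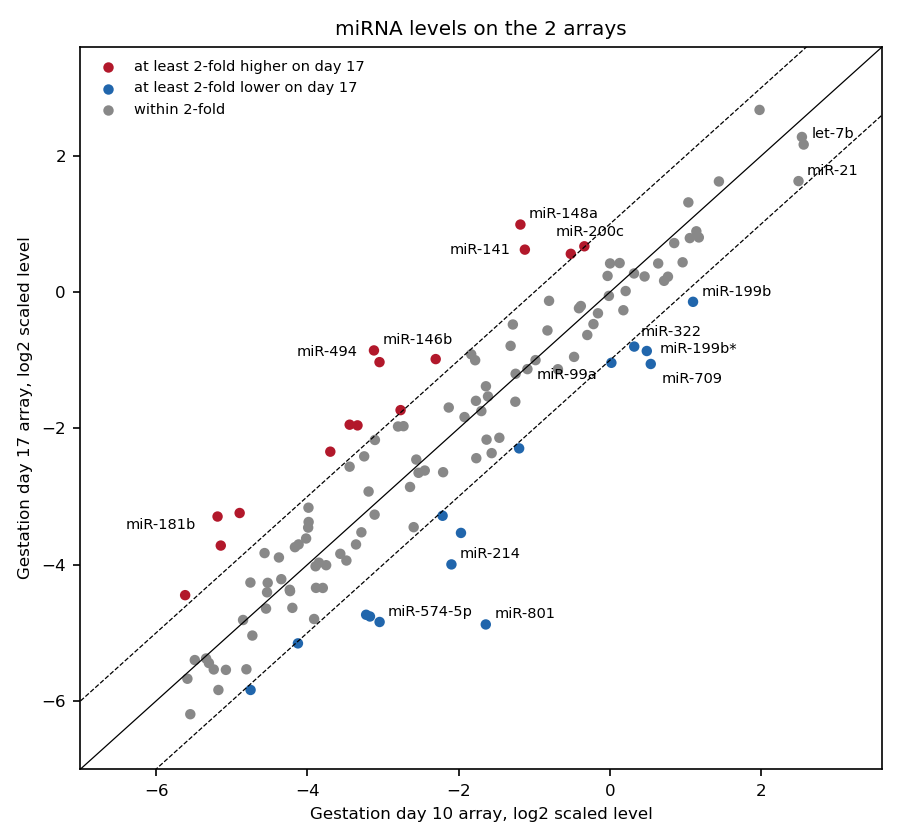
Log2 scaled level of the 129 miRNAs above background on both arrays, day 17 on the vertical axis and day 10 on the horizontal axis, 1 point a miRNA. The solid line marks equal levels and the dashed lines 2-fold differences; 15 points lie above the upper dashed line and 15 below the lower one, and the rest of the profile follows the diagonal.

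The highest differences among miRNAs above background on both days were those of miR-146b and miR-148a, both abundant in milk. miR-146b, a regulator of NF-kappaB signalling that is also studied in mammary alveoli, had a scaled level of 0.553 ± 0.00605 on day 17 and 0.115 ± 0.00215 on day 10 (SE over spots), a difference of 2.26 ± 0.03 or 4.81-fold. miR-148a, one of the most abundant miRNAs of milk and a repressor of the DNA methyltransferase DNMT1, had 1.99 ± 0.0115 on day 17 and 0.441 ± 0.00417 on day 10, a difference of 2.18 ± 0.02 or 4.52-fold. Both probes of miR-148a were above background on both days, with differences of 2.14 and 2.24, whereas miR-146b rested on 1 such probe. Of the 18 milk-abundant miRNAs listed, 15 were above background on both days: 5 were at least 2-fold higher and 1 was lower (miR-99a), against 11.6% each way over all 129, and the median was 0.27, against -0.12. Besides miR-146b and miR-148a, the 5 were miR-141, miR-200a and miR-200c, which are counted again in the miR-200 family below. Of the rest of the list, miR-182 was above background on day 17 only, and miR-375 and miR-191 were detected on neither array. Let-7a, let-7b, let-7f, miR-26a, miR-30a and miR-30d, which are abundant in milk and in many tissues, stayed within 2-fold. So did miR-101a (0.26), miR-22 (-0.55) and miR-21, which was at 3.10 on day 17 and 5.64 on day 10 (-0.86). The summed level of the list was 23.9 on day 17 and 23.4 on day 10.

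Most of the epithelial miR-200 family was higher on day 17. It comes from 2 clusters: miR-200a, miR-200b and miR-429 on chromosome 4 (155428025 to 155429810, mm9, from the probe annotation in the files) and miR-141 and miR-200c on chromosome 6 (124667935 to 124668357). Of the 5 members, 4 were at least 2-fold higher, against 11.6% of all 129, with differences of 1.75 ± 0.02 for miR-141, 1.32 ± 0.03 for miR-200a, 1.08 ± 0.02 for miR-200b and 1.01 ± 0.03 for miR-200c. miR-429 differed by 0.68 ± 0.02. On the level scale, miR-141 stood at 1.54 on day 17 and 0.459 on day 10, miR-200a at 0.506 on day 17 and 0.203 on day 10, miR-200b at 1.48 on day 17 and 0.700 on day 10, and miR-200c at 1.60 on day 17 and 0.792 on day 10. All 5 differences were above 0, and the summed level of the family was 6.04 on day 17 and 2.73 on day 10. The median was 1.08 with this scaling and from 1.12 to 1.45 above each setting's own median; its sign turned under the authors' deposited table, where it was -0.20. miR-200c sat just past the 2-fold threshold and its probes differed, at 0.79 and 2.01.

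Among the other epithelial miRNAs, only miR-96 passed 2-fold. miR-96, a miRNA of sensory and glandular epithelia, was at 0.260 on day 17 and 0.0921 on day 10 (2.82-fold), and its cluster partner miR-183 on chromosome 6 (30119506 to 30119729) differed by 0.53 ± 0.04. The third miRNA of that cluster, miR-182, was above background on day 17 only, at least 1.54-fold higher there. miR-205, which marks basal and progenitor cells of the mammary epithelium, was at 0.501 on day 17 and 0.291 on day 10 (0.78 ± 0.02), and miR-203, a miRNA of stratified epithelium, differed by 0.26 ± 0.06. The median of the 4 measured members was 0.66.

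Of the 4 members of the miR-181 family, known for roles in lymphocyte and muscle differentiation, 3 were at least 2-fold higher on day 17. The share over all 129 was 11.6%, and each of the 4 members rests on 1 probe above background on both days. miR-181b was at 0.102 on day 17 and 0.0274 on day 10 (1.89 ± 0.06), miR-181a at 0.106 on day 17 and 0.0336 on day 10 (1.65 ± 0.05), miR-181d at 0.0759 on day 17 and 0.0283 on day 10 (1.43 ± 0.07) and miR-181c at 0.0704 on day 17 and 0.0422 on day 10 (0.74 ± 0.05). These are dim miRNAs. The lowest scaled level of a probe above background was 0.0237 on day 17 and 0.0354 on day 10, so the day 10 values of miR-181a, miR-181b and miR-181d lay below that floor on the average of their probes. The family median was 1.54 and lay from 0.40 to 1.66 above each setting's own median. After normexp correction with an added offset of 50 arbitrary units, which compresses dim signals, it was 0.08 and miR-181d was -0.022. The family has 2 measured loci: miR-181a and miR-181b map to chromosome 1 (139863054 to 139863249), miR-181c and miR-181d to chromosome 8 (86702658 to 86702841).

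**Figure D2:**
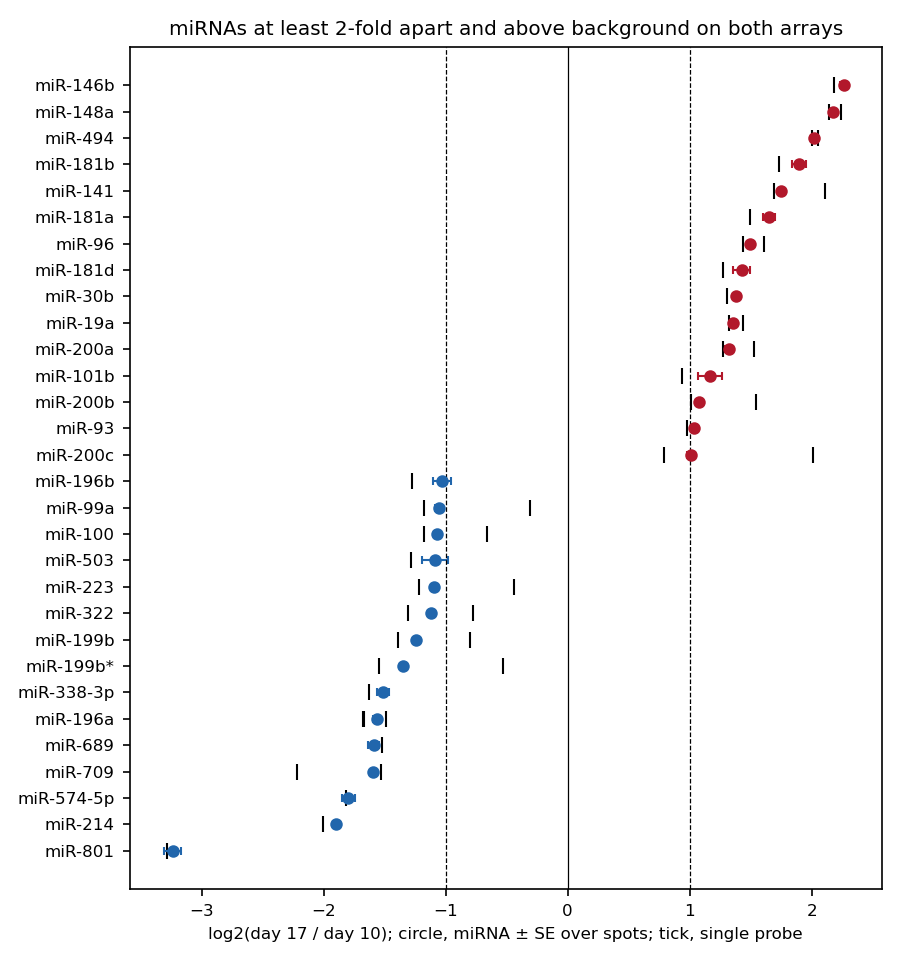
Difference of each of the 30 miRNAs above background on both arrays and at least 2-fold apart, as log2(day 17 / day 10), from the highest at the top to the lowest at the bottom. Circles are miRNAs with the SE over spots, ticks are single probes above background on both arrays, and the dashed lines mark 2-fold; 14 of the 30 rest on 1 such probe.

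The oncogenic miR-17-92 cluster and its paralogues, which promote the cell cycle and are high in dividing cells, had a median of 0.42. Of 9 measured members, 8 were above 0, against 56 of all 129, and 2 were at least 2-fold higher, against 11.6%: miR-19a, at 0.197 on day 17 and 0.0772 on day 10 (1.36 ± 0.02), and miR-93, at 0.301 on day 17 and 0.147 on day 10 (1.04 ± 0.02). The only probe of miR-93 above background on both days gave 0.98, just under 2-fold. miR-20b (0.94) and miR-18a (0.82) lay just below 2-fold, and miR-92a (0.26) and miR-106b (-0.01) differed little. Within the chromosome 14 cluster (115443093 to 115443718) the 5 measured miRNAs ran from 0.18 to 1.36, but probes of single members were nearly as far apart, at -0.04 and 0.81 for miR-20a and 0.34 and 1.25 for miR-19b. All 5 members of the miR-30 family, miRNAs of epithelial and fat cell differentiation, were above 0, against 56 of all 129, but only miR-30b passed 2-fold, at 0.258 on day 17 and 0.0990 on day 10 (1.38 ± 0.03). miR-101b, whose paralogue miR-101a targets cyclooxygenase-2 in mammary epithelium, was at 0.0459 on day 17 and 0.0204 on day 10 (1.17 ± 0.10), while miR-101a differed by 0.26. The day 10 value of miR-101b lay below the floor of 0.0354. The only probe of miR-101b above background on both days gave 0.94, under 2-fold, and the miR-101b value had the opposite sign after normexp (-0.26) and in the authors' deposited table (-0.11).

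miR-494 stood apart from its neighbours. It belongs to the imprinted Dlk1-Dio3 region of chromosome 12, whose miRNAs are expressed from the maternal chromosome, and was at 0.491 ± 0.00378 on day 17 and 0.121 ± 0.00214 on day 10 (2.02 ± 0.03, 4.05-fold). The 5 other measured miRNAs of that region lay below 0 and within 2-fold, at -0.30 for miR-434-3p, -0.55 for miR-127, -0.66 for miR-299*, -0.73 for miR-300 and -0.89 for miR-379, and miR-154 was above background on day 10 only, at least 2.13-fold lower on day 17. Within the stretch from 110947280 to 110962594 the differences spanned 2.91 log2 units.

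The lower calls included miRNAs made in stroma. miR-214, made with the miR-199 miRNAs in mesenchyme, was at 0.0627 ± 0.000866 on day 17 and 0.234 ± 0.00129 on day 10 (-1.90 ± 0.02). miR-199b was at 0.907 on day 17 and 2.14 on day 10 (-1.24 ± 0.01), and miR-199b*, from the other arm, at 0.550 on day 17 and 1.40 on day 10 (-1.35 ± 0.02). The probes named miR-199b are placed at the miR-199a locus of chromosome 1 (164147979 to 164153590), together with miR-199a-5p (-0.67) and miR-214, whereas miR-199b* is placed on chromosome 2 (32174006 to 32174027), and near-identical copies cannot be told apart by these probes. Of the 5 measured miRNAs of fibroblasts and smooth muscle, 3 were at least 2-fold lower, against 11.6% of all 129; the median was -1.24 and the summed level 2.30 on day 17 against 4.38 on day 10. The smooth muscle miRNAs of the list went the other way: miR-143 was at 0.532 on day 17 and 0.281 on day 10 (0.92 ± 0.02), and miR-145 was above background on day 17 only, at least 1.67-fold higher there. The list median lay from -1.20 to -0.83 relative to each setting's own median.

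Of the miR-99/100 miRNAs, which target the growth regulator mTOR, miR-99a and miR-100 were lower. miR-99a was at 0.488 on day 17 and 1.01 on day 10 (-1.06 ± 0.03), and miR-100 at 0.103 on day 17 and 0.216 on day 10 (-1.07 ± 0.03). miR-99b (0.49), miR-125a-5p (-0.12) and miR-125b-5p (-0.26) stayed within 2-fold. From the miR-15/16 seed family, which restrains cyclins, only the X-linked pair was called: miR-322 at 0.575 on day 17 and 1.25 on day 10 (-1.12 ± 0.02), and miR-503 at 0.0175 on day 17 and 0.0371 on day 10 (-1.09 ± 0.11), both within chromosome X 50407204 to 50407504. The day 17 value of miR-503 lay below the floor of 0.0237, and 1 of its probes was not above background on either day. miR-15a, miR-15b, miR-16, miR-195 and miR-497 lay between -0.52 and 0.52. miR-196a and miR-196b, from the Hox clusters and named here after their values were seen, differed by -1.57 ± 0.03 and -1.03 ± 0.07.

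The lowest value of all belonged to miR-801, at 0.0340 ± 0.00161 on day 17 and 0.321 ± 0.00572 on day 10 (-3.24 ± 0.07). The sequence once listed under that name is now taken for a piece of the U11 small nuclear RNA. miR-709 was at 0.482 on day 17 and 1.46 on day 10 (-1.59 ± 0.01), miR-574-5p at 0.0349 on day 17 and 0.121 on day 10 (-1.80 ± 0.05), miR-689 at 0.0369 on day 17 and 0.111 on day 10 (-1.59 ± 0.05) and miR-338-3p at 0.0376 on day 17 and 0.107 on day 10 (-1.51 ± 0.05). Apart from miR-709 these were dim on day 17, close to the floor. The entry miR-720, now known as a fragment of a transfer RNA, was the brightest entry on day 17 at 6.39, against 3.95 on day 10 (0.70).

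Markers of other cells in the tissue differed in several ways. Leukocyte miRNAs had a summed level of 0.552 on day 17 and 0.644 on day 10 over 6 listed members. Myeloid miR-223 was at 0.204 on day 17 and 0.436 on day 10 (-1.09 ± 0.02), whereas miR-142-3p, common to blood cells, differed by 0.83 and miR-146a by 0.04. Leukocyte miR-142-5p and miR-150 were above background on day 17 only, with no bound above 1. Red cell miR-451 was at 1.65 on day 17 and 1.81 on day 10 (-0.13), and miR-486 differed by -0.04. The third red cell miRNA, miR-144, was above background on day 17 only, at least 1.35-fold higher there. Endothelial miR-126-3p was at 1.86 on day 17 and 2.21 on day 10 (-0.25). From the other arm, miR-126-5p was above background on day 17 only, with no bound above 1. Of 5 measured miRNAs associated with fat cells, none passed 2-fold, with a median of -0.17. No red cell, endothelial or fat cell miRNA of these lists passed 2-fold.

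Striated muscle miRNAs were the exception. miR-1 was at 0.316 on day 17 and 0.00701 on day 10, where it was not above background, which makes it at least 8.93-fold higher on day 17. miR-133b was at least 7.40-fold and miR-133a at least 4.05-fold higher in the same sense, each bound being taken against the lowest level above background on day 10. miR-206 was above background on day 17 only, with no bound above 1. All 4 were above background in the virgin gland too, where the summed level of the list was 1.94, against 0.754 on day 17, 0.0313 on day 10, and 0.0351 and 0.0201 on lactation days 2 and 10. The heart and slow-muscle miRNAs miR-208a, miR-208b and miR-499 were not detected on either gestation array. Body wall muscle lies beside several mammary glands. Neither the source of the muscle miRNAs nor the part of such tissue in the other differences was tested.

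**Figure D3:**
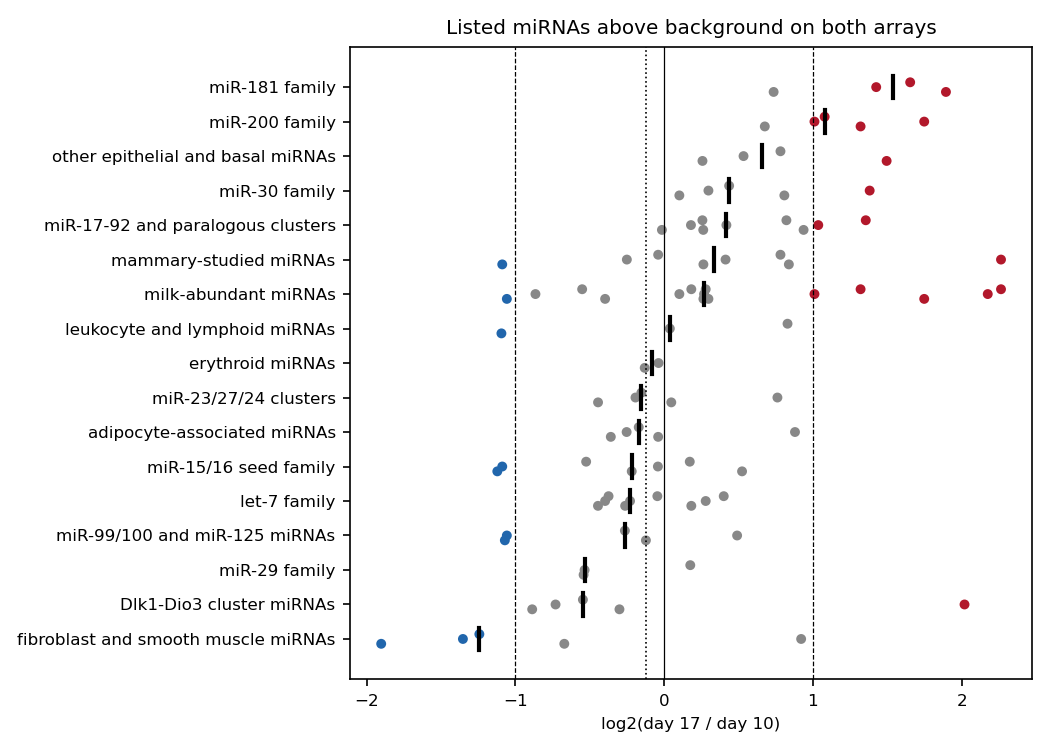
Differences of the listed miRNAs above background on both arrays, as log2(day 17 / day 10), 1 row a list and 1 point a miRNA, with the list median as a bar, the median of all 129 as a dotted line and 2-fold as dashed lines. The miR-181 and miR-200 lists lie furthest right and the fibroblast list furthest left; relative to each setting's own median they lay at 0.40 to 1.66, 1.12 to 1.45 and -1.20 to -0.83. Scalings that shift all miRNAs alike turned the unadjusted sign of most list medians, the miR-200 list included, in at least 1 setting.

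The large shared families showed small differences. The 9 let-7 miRNAs, which accompany differentiation in most tissues, ran from -0.44 to 0.40 with a median of -0.23, and none passed 2-fold although they include the brightest miRNAs on both arrays. The miR-23/27/24 miRNAs ran from -0.44 to 0.76 with a median of -0.15. In the miR-29 family, which targets collagens, miR-29a was at -0.54, miR-29c at -0.53 and miR-29b at 0.18, and none passed 2-fold. Over the 23 clusters of measured miRNAs within 10 kb of each other, holding 58 miRNAs, the median spread within a cluster was 0.64. Both arms were measured for miR-140 (-0.24, other arm -0.16) and miR-30a (0.30, other arm 0.61).

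Probes of 1 miRNA gave a second view of the error. Among the 82 miRNAs with at least 2 probes above background on both arrays, the median gap between probes was 0.41 and its 90th percentile 0.90, well above the median SE over spots of 0.029. Of the 30 miRNAs called on both arrays, 27 had every probe in the direction of the call. Over all 129 miRNAs above background on both arrays, 85 had every probe in the direction of their difference. The exceptions among the 30 were miR-196a, miR-196b and miR-503. The 30 were picked for a large difference, and both counts include probes that were not above background. Of the 30, 14 rest on 1 probe above background on both arrays. The 90th percentile of the gap lies close to the 2-fold threshold. Just past the 2-fold threshold were miR-200c (1.01), miR-93 (1.04), miR-196b (-1.03) and miR-99a (-1.06), and just short of it were miR-20b (0.94), miR-143 (0.92), miR-379 (-0.89) and miR-21 (-0.86). Detection by flag had no sharp edge in signal: on day 17 the lowest total signals of detected miRNAs were 1.30 (miR-532-3p) and 2.00 (miR-714), and the highest of undetected ones 14.4 (miR-410) and 13.1 (miR-483*). On day 10 they were -0.71 (miR-712) and 0.646 (miR-714) for detected and 13.1 (miR-149) and 12.8 (miR-872) for undetected miRNAs.

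The other mouse stages, 1 array each, placed the 2 gestation days in the reproductive cycle. Over the 91 miRNAs above background on all 5 mouse arrays, log2 levels of virgin and day 10 gland correlated at r = 0.970, those of day 10 and day 17 at 0.898, those of day 17 and lactation day 2 at 0.942, and those of lactation days 2 and 10 at 0.945. The virgin and day 10 arrays shared the second slide and the other 3 the first. The 75th percentiles used as divisors were 598 in virgin gland, 702 and 937 on gestation days 10 and 17, and 394 and 246 on lactation days 2 and 10. The lactation arrays had the lowest divisors, which raises their scaled levels, so the order of stages is given for this scaling only. miR-148a was at 0.296 in virgin gland, 0.441 and 1.99 on gestation days 10 and 17, and 4.00 and 4.25 on lactation days 2 and 10. miR-146b was at 0.0705, 0.115, 0.553, 1.35 and 3.87 in the same order. The summed miR-200 family was at 1.68, 2.73, 6.04, 10.6 and 14.1, so with this scaling its level was higher at each successive stage. The fibroblast list was at 4.23, 4.38, 2.30, 1.21 and 0.830. miR-199b was at 1.95, 2.14, 0.907, 0.464 and 0.237, and miR-99a at 1.01, 1.01, 0.488, 0.211 and 0.129. With this scaling, the virgin level of these miRNAs lay nearer to that of day 10 than to that of day 17. Their scaled lactation levels lay beyond that of day 17. Over all measured miRNAs, virgin lay nearer to day 10 for 49 of 56 higher on day 17 (87.5%) and 52 of 73 lower (71.2%). For miRNAs called on both arrays, lactation day 2 lay on the day 17 side of day 10 in 15 of 15 higher. It did so for 14 of 15 lower. Over all measured miRNAs the counts were 49 of 56 higher (87.5%) and 51 of 73 lower (69.9%). The calls were picked for a large gap between the 2 days, which favours such counts.

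Other miRNAs did not follow that order. miR-494 was at 0.576 in virgin gland, 0.121 and 0.491 on gestation days 10 and 17, and 0.367 and 0.334 on lactation days 2 and 10, so day 10 was the lowest of the 5. miR-205 was highest on day 17, at 0.115, 0.291, 0.501, 0.177 and 0.136 from virgin gland to lactation day 10. miR-19a likewise had its highest level on day 17, at 0.0469, 0.0772, 0.197, 0.168 and 0.0771. Red cell miR-451 was highest in virgin gland, at 5.69, 1.81, 1.65, 2.51 and 3.83. miR-689 ran 0.0370, 0.111, 0.0369, 0.0661 and 0.220, with no trend over the cycle.

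**Figure D4:**
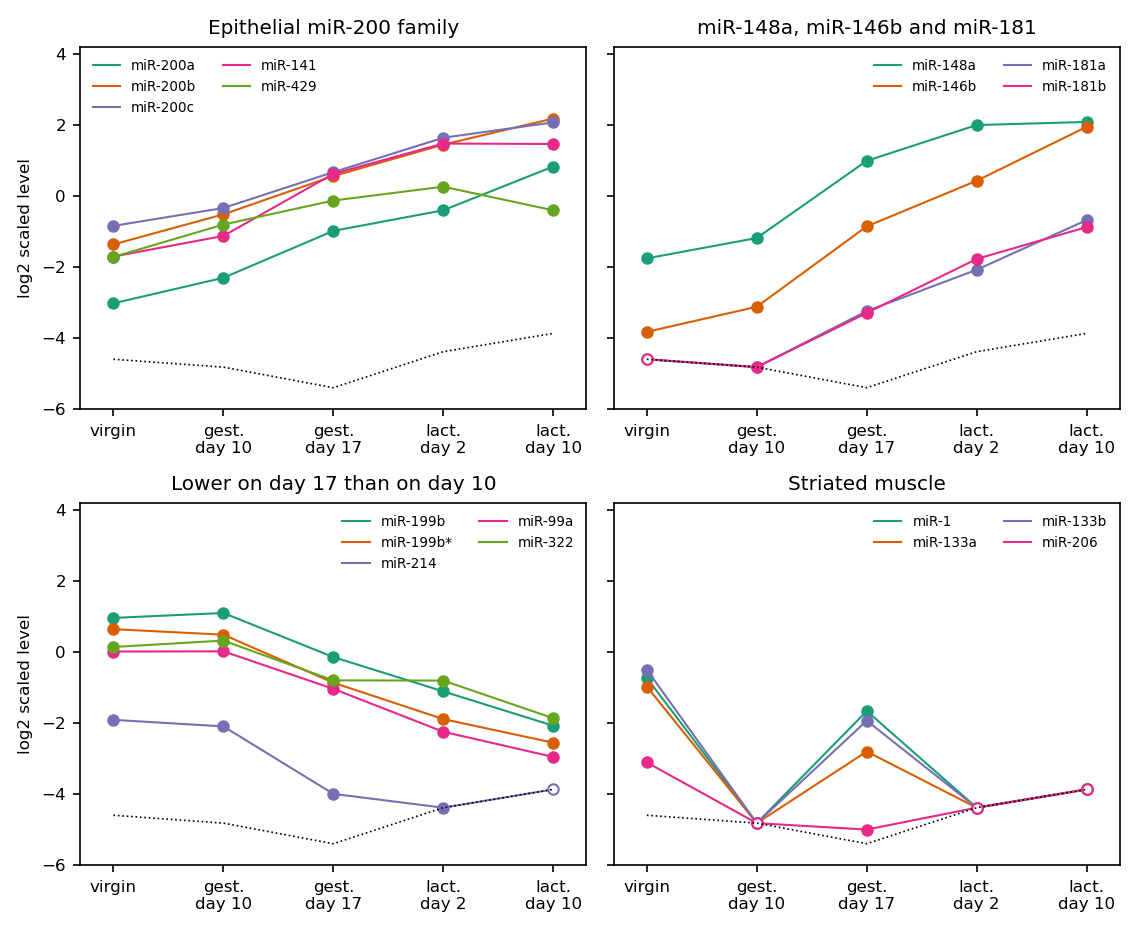
Log2 scaled level of selected miRNAs on the 5 mouse arrays in stage order, 1 array a stage. Open circles are not above background, values below the lowest level of a probe above background (dotted line) are drawn on that line; the miR-200 members, miR-148a and miR-146b lie higher in lactating than in virgin gland, miR-199b and miR-99a run downward from day 10, and the muscle miRNAs are above background in virgin and day 17 gland only.

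Late pregnancy was also sampled in sheep, at gestation day 125 against days 64 and 14, again with 1 array a day. The 2 sheep comparisons share the day 125 array, and probes were designed for mouse miRNAs. The divisors were 939 on day 125, 1561 on day 64 and 1831 on day 14. The lower divisor raises the scaled levels of day 125, and the sheep differences are given for this scaling only. In sheep, 37 of 130 measured miRNAs were at least 2-fold higher on day 125 than on day 64 (28.5%) and 24 lower (18.5%). Against day 14, 21 of 136 were higher (15.4%) and 18 lower (13.2%). Across the 104 miRNAs above background on all 5 gestation arrays, the mouse difference correlated weakly with the sheep difference, at r = 0.26 (Spearman 0.35) for day 125 over day 64 and r = 0.28 (Spearman 0.36) for day 125 over day 14. All points of a species share its arrays, and gestation days of the 2 species do not match.

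With this scaling, miR-148a, miR-19a and 4 miRNAs of the miR-200 family were at least 2-fold higher in late gestation in both species. Of the 15 mouse miRNAs higher and measured on both days, 13 were measured in sheep: 6 were at least 2-fold higher on sheep day 125 than on both earlier days, among 17 of 104 (16.3%) that were so overall. miR-148a was higher by 2.56 against day 64 and 1.95 against day 14. The corresponding pairs were 2.34 and 1.61 for miR-200a, 2.17 and 1.38 for miR-200b, 2.12 and 1.45 for miR-200c, 1.48 and 1.29 for miR-141, and 2.05 and 1.32 for miR-19a. Of the 10 lower in mouse and measured in sheep, 1 was at least 2-fold lower on sheep day 125 than on both earlier days, miR-199b* (-1.38 and -1.58), among 11 of 104 (10.6%) overall. Outside those 10, miR-801 and miR-709 were not above background on sheep day 125. There miR-801 was at least 9.30-fold lower than on day 64 and 2.32-fold lower than on day 14. The bounds for miR-709 were 4.70-fold and 1.95-fold, and miR-338-3p, miR-503 and miR-689 had no bound above 1. Several went apart: miR-223 differed in sheep by 1.62 against day 64 and 0.81 against day 14, miR-181a was at -0.84 and -0.32, and miR-146b was 0.89 against day 64 and -0.75 against day 14. miR-494 was at 0.0911 on sheep day 125, against 1.56 on day 64 and 0.575 on day 14, differences of -4.09 and -2.66 where the mouse value was 2.02.

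**Figure D5:**
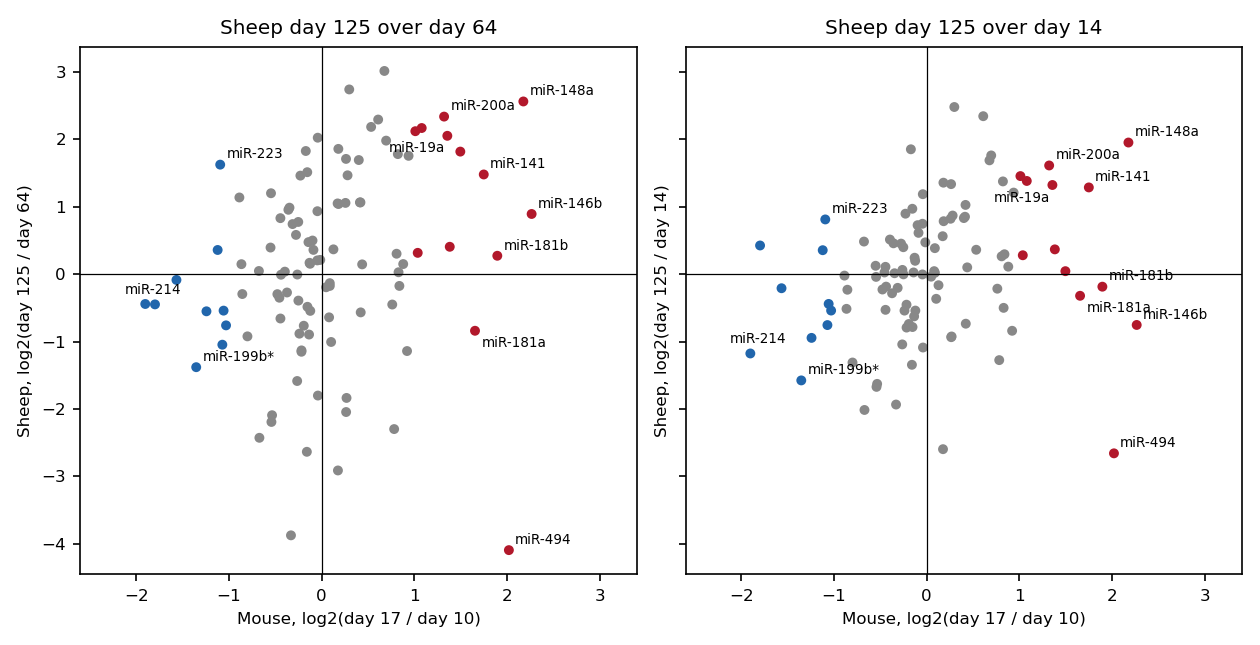
Difference in sheep (vertical axes, log2 of day 125 over day 64 at left and over day 14 at right) against the mouse difference (horizontal axes, log2 of day 17 over day 10) for 104 miRNAs above background on all 5 gestation arrays, 1 array a day. Red points are at least 2-fold higher and blue points at least 2-fold lower in mouse; miR-148a, miR-141 and miR-200a lie at upper right in both panels, and miR-494 at lower right.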

How the data were processed

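Cy3-labelled total RNA was hybridised to 1-colour Agilent miRNA arrays, with 12493 spots, of which 11340 were for mouse miRNAs. The deposited scanner files hold intensity values on a linear scale in arbitrary units. Per the file headers, background was subtracted from the processed signal and arrays were not scaled to each other; the headers name Agilent Feature Extraction 10.5.1.1, whereas the submitters' processing notes give version 9.5. Flags of 0 or 1 for detection, signal above background and outlier spots are deposited beside them. The authors' deposited value table is an intensity too; checked against the scanner files it equalled the software's total signal per miRNA times 1 constant per array, 0.451 for day 17 and 1.49 for day 10 (within 0.1% for 99.1% of 115 miRNAs on day 17 and 99.0% of 103 on day 10 with a total above 50), with column medians of 0.836 for day 17 and -5.06 for day 10. The basis of these constants is not known, so whether the table is centred or scaled to a common value is not known either.

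Outlier spots (1.84% on day 17, 2.80% on day 10) were dropped, spots averaged per probe, probes per miRNA, and each array divided by its 75th percentile over the 94 miRNAs detected on all 10 arrays. Members have 2 to 4 probes and a median of 20 spots, and no spot was saturated; the number of arrays limits the precision. A miRNA above background on 1 array was given as "at least N-fold", against the higher of its own value and the lowest level of a probe above background on the other array. Nothing was tested, as each day has 1 array. Sheep arrays were treated alike. Averaging over spots and probes was tested on simulated spots with known folds, after centring on the unchanged miRNAs. That test covered neither the choice of scaling nor the floors and at-least folds. Python 3.11.15, pandas 2.3.3, R 4.3.3 and limma 3.58.1 (normexp only) were used.

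The miRNAs and lists were chosen with earlier results of these data known. Named miRNAs were the called ones (up to 12 each way with every probe in 1 direction), the largest bounds, list and cluster members, the 10 brightest per array and those next to the detection edge. Seed families and base composition were not analysed here. Alternatives were 8 scalings, corrections or tables, and other spot, probe, floor and threshold rules.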

Additional observations from a re-analysis of the deposited data

Results flagged for a closer look

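miR-494 differed in direction between the species: 2.02 on the log2 scale in mouse (day 17 over day 10), against -4.09 (day 125 over day 64) and -2.66 (day 125 over day 14) in sheep. Steep sheep differences were not particular to miR-494: miR-1224 was at -3.87 against day 64 and -1.93 against day 14, and miR-125a-3p at -5.30 and -4.71. Each of these had its highest sheep level on the day 64 array, as miR-494 did. Each value rests on 1 array a side, and the difference between the species was not tested.

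The probes for 10 miRNAs of a mouse gammaherpesvirus lie outside the comparison. mghv-miR-M1-2 was detected on both arrays, with a processed signal of 31.7 arbitrary units on day 17 and 25.3 on day 10, and with 75% of its spots well above background on day 17 and 60% on day 10, and the other 9 were not detected on either. The median of the negative control spots was 5.40 on day 17 and 4.35 on day 10. The source of this signal was not tested.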

How the results depend on the processing

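No paired analysis was possible because each day has 1 array and the labels give no animal shared between arrays; for the same reason leaving out a replicate could not be run. The 18 higher and 16 lower calls and the median of -0.12 moved with the scaling, and the counts also with the threshold and the probe rule. Taking the percentile over miRNAs detected on all 5 mouse arrays gave 10 lower calls. Over all mouse miRNAs it gave 10 higher and 28 lower calls and a median of -0.58, and no scaling gave 33 higher and 7 lower calls and a median of 0.29. Normexp gave 6 higher and 10 lower calls and a median of -0.31. In the authors' deposited table there were 3 higher and 95 lower calls and the median was -1.39. Thresholds of 1.5-fold and 3-fold gave 33 higher with 27 lower and 9 higher with 5 lower, and requiring every probe past 2-fold gave 7 and 1. Signs turned after normexp for miR-101b (-0.26) and miR-181d (-0.022). In the authors' deposited table they turned for miR-101b (-0.11), miR-200b (-0.20), miR-200c (-0.26), miR-93 (-0.24) and the median of the miR-200 family (-0.20); that table multiplies the arrays by unequal constants. The cause of the other changes was not tested. The other alternatives left both counts within 1.5 times. Relative to each setting's median, all 30 miRNAs measured on both arrays and called kept their direction, with miR-101b lowest at 0.05. Where a setting only multiplies a whole array by a constant, these relative values are unchanged by construction and give no check. Dim miRNAs are limited by background: the lowest level above it was 0.0237 on day 17 and 0.0354 on day 10.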

Other observations

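The 5 control probe sets gave scaled differences between the arrays, as log2(day 17 / day 10), of 0.88 (hur_1), 0.64 (hur_4), 0.51 (hur_6), -0.30 (hur_2) and -0.44 (mr_1). The first 3 were brighter on day 17 and the last 2 dimmer, relative to the scaling used for the miRNAs.

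Some listed miRNAs not yet described lay above 0 without passing 2-fold. miR-210, induced by low oxygen, differed by 0.84, and miR-212, studied in the mammary stroma, by 0.41. miR-365, associated with brown fat cells, differed by 0.88, the one measured member of its list above 0.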
